A study of Cicer arietinum with 4 samples.

Results

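NAC genes encode a large family of plant transcription factors, and 64 of them are described here among the 28783 genes measured in chickpea ovules. Members were taken by name, as every gene whose symbol is NAC followed directly by a digit. A RefSeq gene table of another chickpea assembly held 63 of the 64 gene numbers, 62 of them under the same symbol and all 63 as protein-coding. It lists NAC46 without a NAC symbol and does not hold NAC60.

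The ovules came from chickpea (Cicer arietinum), a grain legume, of cultivar ICC4958. The post-fertilization group was taken from half-opened flowers and the pre-fertilization group from closed buds, so flower stage and fertilization differ together. Total RNA was sequenced as paired ends in 2 libraries of each group. They are called post A, post B, pre A and pre B after the endings of the table's columns. No label states that libraries with the same letter are paired. The labels name no separate plants or extractions, so p-values measure the spread between these libraries, which may be technical. The names fixed as markers of ovule, seed, anther, petal or leaf matched no gene symbol, so the labelled tissue was not checked against markers here.

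NAC proteins carry a conserved DNA-binding domain at their N end and a variable C end that activates or represses transcription. The family name joins NO APICAL MERISTEM, ATAF and CUP-SHAPED COTYLEDON. In Arabidopsis, CUP-SHAPED COTYLEDON genes set the boundaries between organs, ovules included, and NARS genes act in the ovule's integuments as the seed coat forms. Other NAC genes in that species drive secondary wall deposition, leaf senescence and responses to drought and abscisic acid. The numbers of the chickpea genes carry no such role. For the 58 members without a second name they ascend along each chromosome or scaffold with 0 exceptions. NAC1 to NAC6 are named apart from that order, and their second names are CaNAC21, CaNAC48, CaNAC16, CaNAC06, CaNAC40 and CaNAC54. NAC5 and NAC05 are therefore different genes.

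Levels are in FPKM, which counts fragments per length of transcript and in proportion to all mapped fragments, so that levels of different genes can be compared. Absolute depth is unknown. The value of 1 fragment on low genes gave a depth relative to pre A of 1.01 in post A, 1.11 in post B and 0.549 in pre B, where a single fragment therefore weighs most. Summed over all members, NAC genes reached 545 and 932 FPKM in post A and B, against 295 and 286 FPKM in pre A and B. As a share of the summed FPKM of protein-coding genes this was 0.0916% and 0.155% in the post-fertilization libraries, against 0.0551% and 0.0537% in the pre-fertilization ones. As a share of the summed FPKM of all genes it was 0.0248% and 0.0261%, against 0.0199% and 0.0158%. Both post-fertilization libraries were above both others on each measure, and post B was the highest. On the share of all genes post A and B were close, and the distance to the pre-fertilization libraries was smaller. The summed FPKM of all genes was 2.20e+06 and 3.57e+06 in post A and B, against 1.48e+06 and 1.80e+06 in pre A and B. For protein-coding genes it was 595263 and 603117, against 535999 and 532176. The share of all genes thus also follows a total that was highest in post B. In bulk ovules, a change in the share of cells of a type and a change in RNA per cell cannot be told apart.

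**Figure D1:**
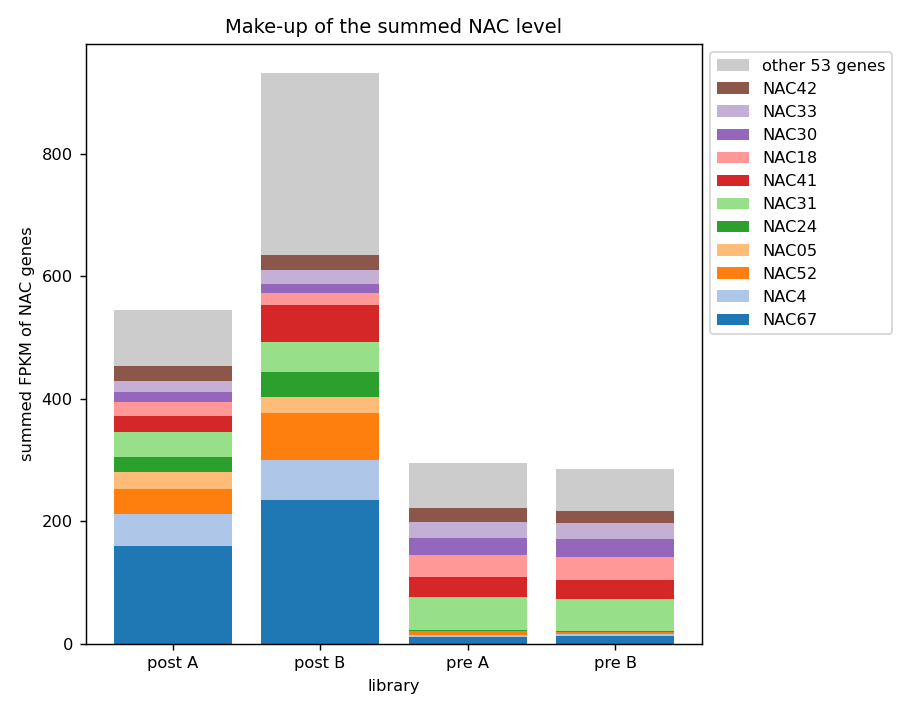
Stacked bars give the summed FPKM of the 64 NAC genes in each library, with 11 genes coloured by name and the other 53 in grey. The bars reach 545 in post A and 932 in post B, against 295 in pre A and 286 in pre B, and NAC67 (lowest block) makes up 29.4% and 25.1% of the post-fertilization bars, against 3.79% and 4.50% of the others.

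Few members carried most of this sum. The leading 5 genes held 59.0% and 52.6% of the summed NAC level in post A and B, against 59.4% and 62.1% in pre A and B. The order of the genes differed between the groups. NAC67, NAC4 and NAC52 were among the leading 5 in both post-fertilization libraries, with NAC31 and NAC05 in post A and NAC41 and NAC5 in post B. In both pre-fertilization libraries the leading 5 were NAC31, NAC18, NAC41, NAC30 and NAC33, in that order. At least 1 FPKM was reached by 26 and 28 members in post A and B (40.6% and 43.8%), against 23 and 21 in pre A and B (35.9% and 32.8%). Over all genes in the table the shares were 60.4% and 61.6% in post A and B, against 58.5% and 58.7% in pre A and B.

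Of the 64 members, 26 had at least 1 FPKM in 2 or more libraries and were tested, with 20 of them reaching 10 FPKM somewhere. Log2(FPKM + 1) was compared between the groups with limma over all 17849 genes that met this filter, and adjusted p-values under 0.05 were called. Of the 26 members 7 rose, 4 fell and 15 did not pass. Among all tested genes 36.5% were called, 21% as higher and 15.5% as lower, so the 11 called NAC genes, 42.3% of those tested, stand near that background. At an unadjusted p under 0.05 there were 13 members, beside 49.5% of all tested genes. The log2 fold changes, post minus pre, were spread more widely, with a median size of 1.22 among NAC genes and 0.43 among all tested genes. This median size was 0.99 among tested heat stress transcription factors and 0.34 among tested auxin response factors, so a wide spread was not particular to NAC genes. A member that met the filter through its higher group alone had to differ. NAC05, NAC13 and NAC62 met it through post alone, and NAC09 through pre alone. The called shares and this spread are therefore given as a description.

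**Figure D2:**
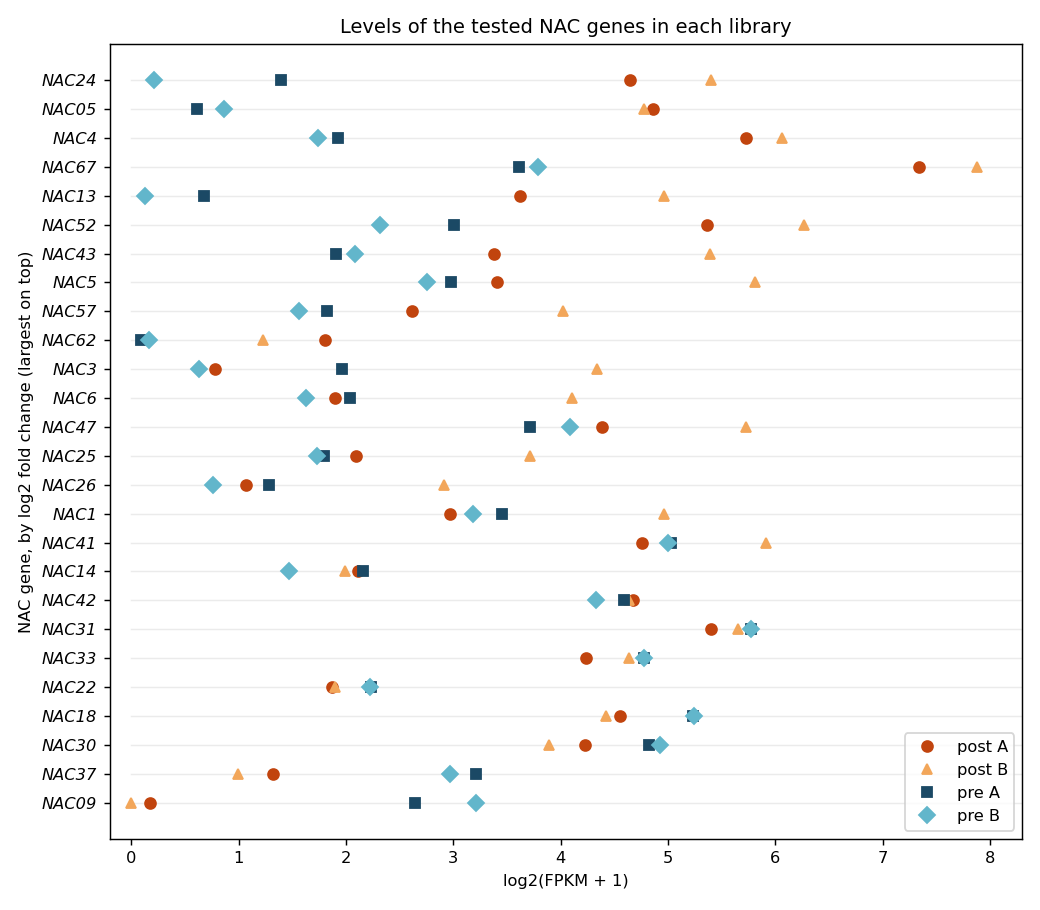
Each row is a tested NAC gene and each symbol its level in a library as log2(FPKM + 1), with post-fertilization libraries in orange tones and pre-fertilization libraries in blue tones. The upper rows, NAC24 to NAC52, show both post-fertilization libraries far to the right of both others, while in NAC5, NAC3 and NAC6 post B lies apart from the remaining libraries.

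NAC67 was the highest member after fertilization. It lies on an unplaced scaffold, from position 502826 to 504830 (coordinates are those of the deposited table, whose genome build no source used here states). Its level was 160 and 234 FPKM in post A and B, against 11.2 and 12.8 FPKM in pre A and B. The groups lay far apart. The pre-fertilization pair was close, while post B was 1.46 times post A. The ratio of means was 16.4, and the log2 fold change was 3.91 (SE 0.21, limma adjusted p = 0.00184). Ranked by FPKM among 22940 protein-coding genes, NAC67 stood at place 623 in post A and 407 in post B, against 8971 in pre A and 8157 in pre B.

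NAC4 and NAC05 are neighbours on chromosome 1 and rose together. NAC4, also named CarNAC4, is a factor that responds to drought and salt in chickpea. NAC05 spans positions 16634909 to 16637132 and NAC4 16678912 to 16680993, with 41.8 kb and 1 other gene between them. NAC4 was at 51.9 and 65.8 FPKM in post A and B, against 2.81 and 2.35 FPKM in pre A and B. NAC05 was at 28.0 and 26.4 FPKM in the post-fertilization libraries, against 0.525 and 0.821 FPKM in the pre-fertilization ones. For both genes the post-fertilization libraries were alike and all values of the groups stood apart. Their log2 fold changes were 4.06 (SE 0.17) for NAC4 and 4.08 (SE 0.16) for NAC05, with limma adjusted p = 0.00122 and 0.00121. No source used here states how fragments shared by like copies were counted, so how far the levels of these neighbours are separate measurements is uncertain.

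NAC24, NAC52 and NAC13 rose with a wider spread between libraries. NAC24 was at 24.0 and 41.1 FPKM in post A and B, against 1.63 and 0.156 FPKM in pre A and B (log2 fold change 4.22, SE 0.48, limma adjusted p = 0.00689). NAC52, on chromosome 6 from 20517992 to 20519750, was at 40.1 and 76.1 FPKM in the post-fertilization libraries, against 7.06 and 3.97 FPKM in the others (log2 fold change 3.15, SE 0.39, limma adjusted p = 0.0081). NAC13, on chromosome 2 from 3556655 to 3558642, was at 11.3 and 30.1 FPKM, against 0.603 and 0.0914 FPKM (log2 fold change 3.89, SE 0.50, limma adjusted p = 0.00876). In these genes both post-fertilization values lay above both pre-fertilization values, post B was the highest, and the pre-fertilization libraries differed from each other by 10.4 times in NAC24, 6.59 times in NAC13 and 1.78 times in NAC52.

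NAC62 rose at a low level. It lies on chromosome 8 from 3060932 to 3063855 and was at 2.49 and 1.34 FPKM in post A and B, against 0.0660 and 0.120 FPKM in pre A and B. It was higher in post A than in post B, unlike NAC67, NAC4, NAC24, NAC52 and NAC13. The ratio of means was 20.5, while the log2 fold change on the log2(FPKM + 1) scale was 1.39 (SE 0.26, limma adjusted p = 0.0207), since the added 1 shrinks changes of low genes. With quantile normalization the log2 fold change was 0.95 and the call was lost (limma adjusted p = 0.0607).

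The 7 genes that rose added up to 318 and 475 FPKM in post A and B, against 23.9 and 20.4 FPKM in pre A and B. They held 58.3% and 51.0% of the summed NAC level after fertilization, against 8.09% and 7.12% before. Without NAC67 the other 6 still summed to 158 and 241 FPKM in the post-fertilization libraries, against 12.7 and 7.51 FPKM in the pre-fertilization ones. These sums describe genes chosen by the test and carry no test of their own.

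**Figure D3:**
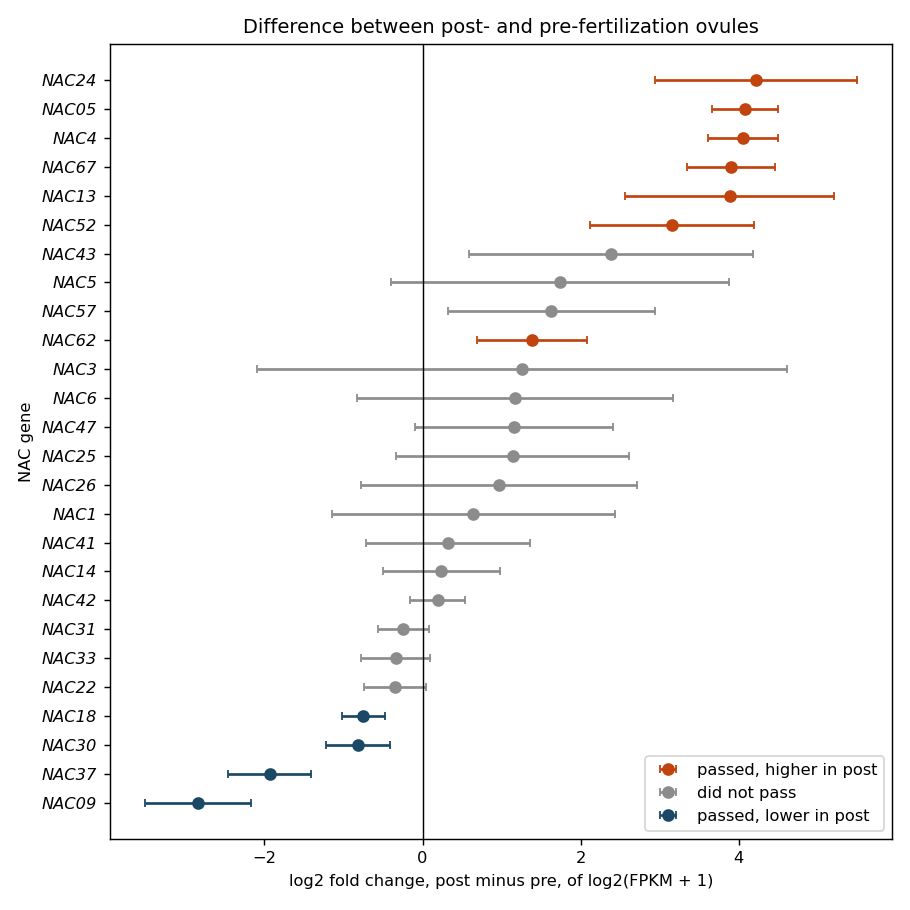
Points are log2 fold changes, post minus pre, of log2(FPKM + 1) for the 26 tested NAC genes, with bars for the 95% interval from the limma fit, red for genes that rose, blue for genes that fell and grey for genes that did not pass. Genes that fell moved less than most that rose, from -0.75 in NAC18 to -2.84 in NAC09, and the widest interval is that of NAC3, from -2.10 to 4.62.

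NAC09 and NAC37 were the members with the largest falls. NAC09, on chromosome 1 from 41956764 to 41959245, was at 0.131 FPKM in post A and listed at 0 in post B, against 5.27 and 8.23 FPKM in pre A and B (log2 fold change -2.84, SE 0.25, limma adjusted p = 0.0044). NAC37, on chromosome 5 from 993831 to 999137, was at 1.50 and 0.989 FPKM, against 8.24 and 6.82 FPKM (log2 fold change -1.93, SE 0.20, limma adjusted p = 0.00561). Each had both post-fertilization libraries well below both pre-fertilization libraries. NAC09 was the only tested member listed at 0 in any library.

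NAC18 and NAC30 fell by less, at higher levels. NAC18, on chromosome 2 from 16916653 to 16921292, was at 22.4 and 20.4 FPKM in post A and B, against 36.6 and 36.8 FPKM in pre A and B (log2 fold change -0.75, SE 0.10, limma adjusted p = 0.00991). NAC30, on chromosome 4 from 8751448 to 8755936, was at 17.7 and 13.8 FPKM, against 27.3 and 29.4 FPKM (log2 fold change -0.82, SE 0.15, limma adjusted p = 0.0192). Their groups did not overlap, and the ratios of means, pre over post, were 1.71 and 1.80. All 4 genes that fell were lower in post B than in post A.

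NAC31, NAC33, NAC41 and NAC42 stood above 10 FPKM in every library and did not pass. NAC31 was at 41.3 and 49.2 FPKM in post A and B, against 53.6 FPKM in both pre A and B, and was the highest member before fertilization. Its log2 fold change was -0.25, with a 95% interval of -0.57 to 0.08. NAC33 was at 17.8 and 23.8 FPKM, against 26.3 and 26.4 FPKM, and its log2 fold change was -0.34 with an interval of -0.78 to 0.09. Both had the post-fertilization libraries below the pre-fertilization libraries. NAC42 was at 24.5 and 23.8 FPKM in the post-fertilization libraries, against 23.1 and 19.1 FPKM in the others (interval -0.15 to 0.54). NAC41 was at 26.1 and 59.1 FPKM, against 31.6 and 31.0 FPKM, so that post A lay below and post B above the pre-fertilization pair (interval -0.72 to 1.36). With quantile normalization, which moved the median change of the tested genes to -0.14 from 0.02 on the log2 scale, NAC31 passed as lower (log2 fold change -0.43, limma adjusted p = 0.0447). Without post B both NAC33 (log2 fold change -0.54, limma adjusted p = 0.0212) and NAC31 (log2 fold change -0.37, limma adjusted p = 0.0461) passed as lower.

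Some members stood far apart between the post-fertilization libraries. Among 31 members with at least 1 FPKM in post A or post B, 7 were at least 3 times higher in post B than in post A (22.6%) and 1 was at least 3 times higher in post A. Of all 18130 genes that reached the same level, 4.64% were at least 3 times higher in post B and 0.86% in post A. Among 24 members with at least 1 FPKM in pre A or pre B, 2 were at least 3 times higher in pre A (8.33%, NAC24 and NAC3). None was at least 3 times higher in pre B. Over all genes at that level these shares were 0.815% in pre A and 1.61% in pre B. The 7 higher in post B were NAC3, NAC26, NAC6, NAC5, NAC1, NAC43 and NAC25, and none of them passed the limma test of post against pre. A wide gap within a group enlarges the SE of that test, here from 0.56 in NAC25 to 1.27 in NAC3. Not passing thus follows in part from how the 7 were chosen. Summed, the 7 stood at 33.6 FPKM in post A and 180 FPKM in post B, against 29.5 FPKM in pre A and 22.7 FPKM in pre B. They were chosen by their gap, so the difference between the sums of post A and post B follows from that choice.

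NAC3 had the widest gap. It was at 0.721 and 19.2 FPKM in post A and B, against 2.91 and 0.551 FPKM in pre A and B, a ratio of 26.6 between the post-fertilization libraries and of 5.28 between the pre-fertilization ones. With 1 added to each value the ratio of post B to post A was 11.7, and 13.7 after quantile normalization of those values. NAC5 was at 9.59 and 54.9 FPKM, against 6.88 and 5.74 FPKM. NAC6 was at 2.74 and 16.2 FPKM, against 3.11 and 2.09 FPKM. In NAC3 and NAC6 post A lay within the pre-fertilization range, and in NAC5 it lay above it, while post B was the highest library in each.

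NAC1 was at 6.82 and 30.1 FPKM in post A and B, against 9.98 and 8.09 FPKM in pre A and B. Post A was thus the lowest library and post B the highest. NAC26 was at 1.09 and 6.55 FPKM, against 1.44 and 0.697 FPKM, with post A again inside the pre-fertilization range, and its ratio of post B to post A was 6.0, or 3.61 with 1 added to each value. NAC25 was at 3.25 and 12.1 FPKM, against 2.46 and 2.32 FPKM, and NAC43 at 9.41 and 40.9 FPKM, against 2.75 and 3.24 FPKM. In NAC25 and NAC43 both post-fertilization libraries lay above both pre-fertilization libraries. NAC43 came closest to the threshold (log2 fold change 2.39, 95% interval 0.59 to 4.19, limma adjusted p = 0.0527), and a pseudocount of 0.1, which weighs low values more, took it past (limma adjusted p = 0.0454).

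**Figure D4:**
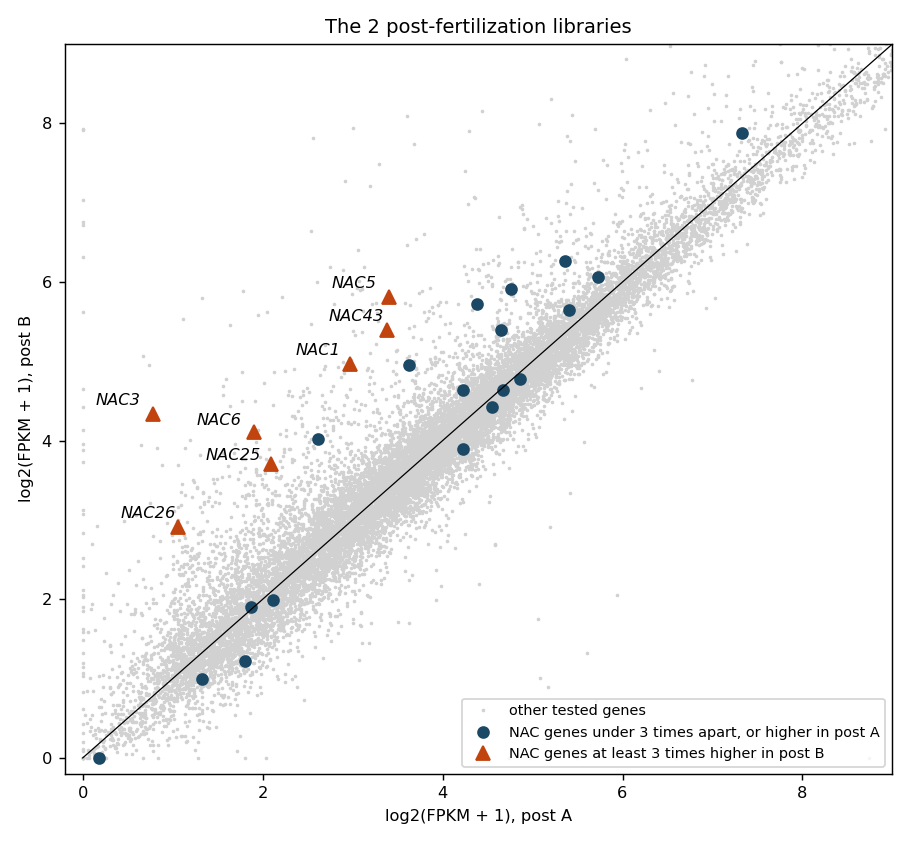
Each point is a gene, placed by its log2(FPKM + 1) in post A (horizontal) and post B (vertical), with other tested genes in grey, NAC genes in colour and a line of equal values. The 7 red triangles, NAC3, NAC26, NAC6, NAC25, NAC1, NAC43 and NAC5, lie above the line, at least 3 times higher in post B, where 3.19% of all tested genes lie.

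Milder gaps in the same direction were found in NAC57, NAC47 and NAC13. NAC57 was at 5.13 and 15.3 FPKM in post A and B, against 2.53 and 1.96 FPKM in pre A and B (limma adjusted p = 0.0614). NAC47 was at 19.9 and 52.0 FPKM, against 12.2 and 15.9 FPKM (limma adjusted p = 0.119). Of the 26 tested members, 15 had their highest value in post B (57.7%), against 32.7% of all tested genes, and the median log2 difference, post B minus post A, was 0.65 among NAC genes and -0.01 among all tested genes. DHN, a dehydrin that protects cells during water loss, was the only gene found under the names fixed for senescence, abscisic acid, secondary wall and organ boundary. It was at 1.18 and 4.44 FPKM in post A and B, against 0.159 in pre A and 0 in pre B. What part the state of post B as a whole has in these gaps was not tested.

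Other transcription factor families in the same table were mixed in this respect. Of the tested heat stress transcription factors 5 of 15 were at least 3 times higher in post B than in post A, and of the tested auxin response factors 1 of 21. In the test of post against pre, 3 heat stress factors rose and 3 fell, and 1 auxin response factor rose and 7 fell, beside the 7 rises and 4 falls of NAC genes. The called shares of 40% for heat stress factors, 38.1% for auxin response factors and 42.3% for NAC genes all lie near the 36.5% of all tested genes. The median log2 fold change was 1.15 for tested NAC genes, 0.51 for heat stress factors, -0.15 for auxin response factors and 0.02 for all tested genes. The NAC median depended on post B. It was 1.83 when post A was left out and 0.14 when post B was left out, while that of all tested genes was -0.02 in both runs. These counts and medians describe the lists, in which a member could meet the filter through its higher group alone. The difference between the families was not tested.

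Both post-fertilization libraries lay above both pre-fertilization libraries in 13 of the 26 tested members, and below them in 7, while the groups overlapped in 6. Among all tested genes these shares were 39.3% above, 36.4% below and 24.3% overlapping. The 6 that overlapped were NAC1, NAC3, NAC6, NAC14, NAC26 and NAC41. NAC14 was at 3.33 and 2.99 FPKM in post A and B, against 3.48 and 1.77 FPKM in pre A and B, and its range within the pre-fertilization pair covered both post-fertilization values. NAC22 was at 2.65 and 2.73 FPKM, against 3.72 and 3.68 FPKM, and did not pass (limma adjusted p = 0.128), though its groups stood apart. With quantile normalization it passed as lower (log2 fold change -0.55, limma adjusted p = 0.0464).

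Some members lie close together. Of 4 pairs within 100 kb, NAC05 with NAC4 rose as described. NAC24 and NAC25 lie 34.5 kb apart on chromosome 3 with 1 gene between them, from 26505734 to 26507937 and from 26542487 to 26544399. NAC24 rose, and NAC25 did not pass (limma adjusted p = 0.172), with both post-fertilization libraries above both others in each gene. NAC30 and NAC31 lie 13.7 kb apart on chromosome 4, with no other gene of the table between them, and NAC30 fell while NAC31 did not pass, with both post-fertilization libraries below both others in each gene. The difference between the members of a pair was not tested. NAC69 and NAC70, 14.0 kb apart on an unplaced scaffold, were both too low to be tested, at 0 and 0.0364 FPKM for NAC69 in post A and B, against 0.0809 and 0.368 FPKM in pre A and B, and at no more than 0.0406 FPKM for NAC70.

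The remaining 38 members were too low for the test. They held 2.07% and 1.39% of the summed NAC level in post A and B, against 2.71% and 2.76% in pre A and B. NAC35, NAC56, NAC60, NAC64 and NAC71 were listed at 0 in all 4 libraries. A listed 0 can stand for a level too low to detect, and their absence is not claimed. A further 26 were above 0 in at least 1 library and under 1 FPKM in all, and 7 reached 1 FPKM in a single library.

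Those 7 were NAC51, NAC20, NAC11, NAC38, NAC63, NAC02 and NAC46. NAC51 was at 0.692 and 1.96 FPKM in post A and B, against 0.131 and 0.318 FPKM in pre A and B. NAC11 was at 0.829 and 1.41 FPKM, against 0.261 and 0.285 FPKM, and NAC20 at 0.984 and 1.42 FPKM, against 0.467 and 0.424 FPKM. In these genes both post-fertilization libraries were above both pre-fertilization libraries. NAC38 was at 0.231 and 0.0525 FPKM, against 0.583 and 1.17 FPKM, the opposite order. NAC46, at 1.02 and 0.263 FPKM, against 0.146 and 0.266 FPKM, was the member at least 3 times higher in post A, with a ratio of post B to post A of 0.259, or 0.627 with 1 added to each value. NAC02 was at 0.841 and 1.06 FPKM, against 0.606 and 0.589 FPKM, and NAC63 at 1.14 and 0.662 FPKM, against 0.598 and 0.502 FPKM, both with smaller gaps between the groups.

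**Figure D5:**
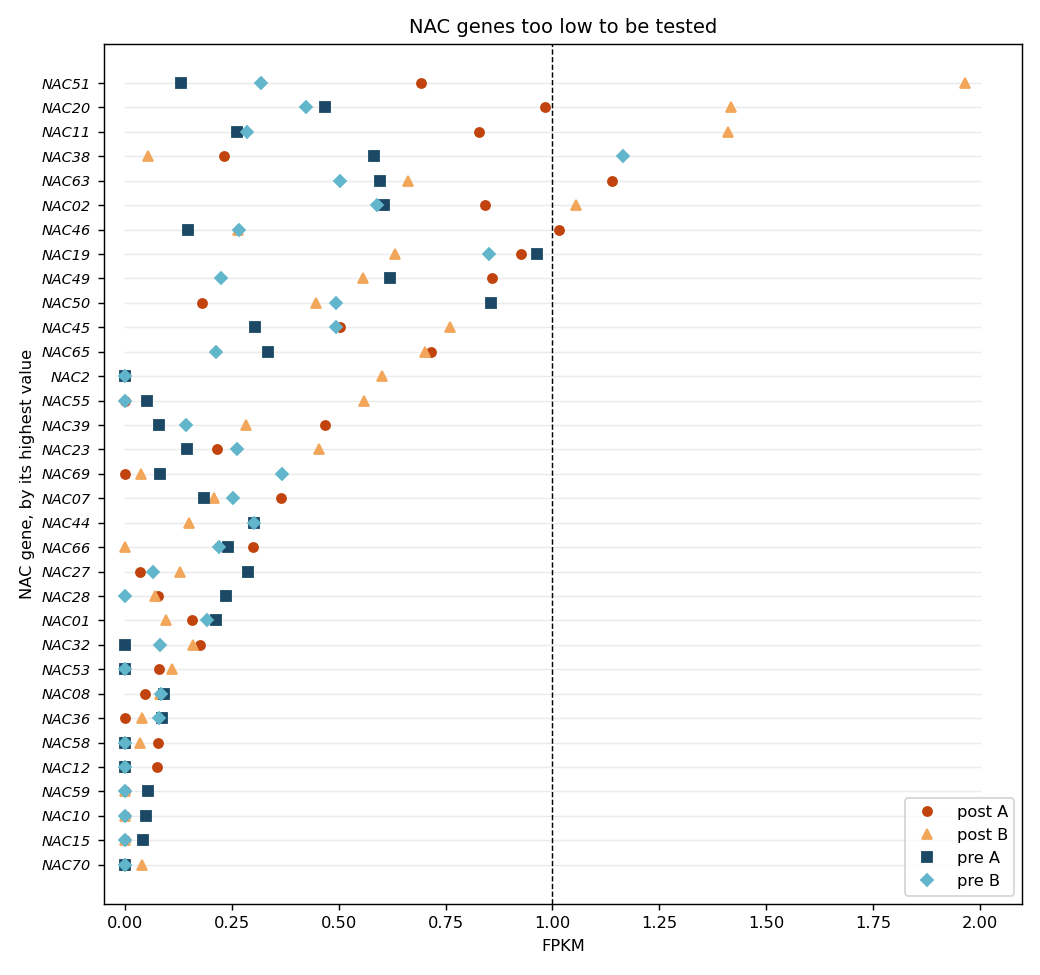
Each row is one of the 33 NAC genes that were above 0 in some library but too low to be tested, with its FPKM in each library and a dashed line at 1 FPKM. Values reach 1.96 FPKM (NAC51, post B), and 26 of the genes stay left of the line in all libraries.

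Among the 33 untested members above 0, both post-fertilization libraries lay above both pre-fertilization libraries in 11, below them in 7, and the groups overlapped in 15. Of all 6072 untested genes above 0 these shares were 24.5% above, 19.1% below and 56.4% overlapping. Listed at 0 in both pre-fertilization libraries and above 0 after fertilization were 5 members. NAC2 was at 0 in post A and 0.601 FPKM in post B, NAC53 at 0.0799 and 0.109 FPKM, NAC58 at 0.0770 and 0.0349 FPKM, NAC12 at 0.0738 FPKM and 0, and NAC70 at 0 and 0.0406 FPKM. Conversely NAC10, NAC15 and NAC59 were at 0 in both post-fertilization libraries and at 0.0494, 0.0419 and 0.0538 FPKM in pre A alone, the deeper of the pre-fertilization libraries. The lowest value above 0 of any member was 0.0349 FPKM, so these levels lie at the lower end of what the table lists. NAC55 was at 0 and 0.559 FPKM in post A and B, against 0.0517 FPKM and 0 in pre A and B, so that it and NAC2 were highest in post B. NAC19 came nearest to 1 FPKM, at 0.926 and 0.631 FPKM in post A and B, against 0.963 and 0.852 FPKM in pre A and B. NAC65 was at 0.715 and 0.702 FPKM, against 0.334 and 0.213 FPKM, with both post-fertilization libraries above the others. NAC01, NAC07, NAC08, NAC23, NAC27, NAC28, NAC32, NAC36, NAC39, NAC44, NAC45, NAC49, NAC50 and NAC66 each had a highest value between 0.0870 FPKM (NAC36, pre A) and 0.860 FPKM (NAC49, post A).

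The count of calls depended on which libraries entered the fit. So did the number of members tested, which was 23 without post A, 22 without post B, 24 without pre A and 25 without pre B. Without post A there were 14 rises and 4 falls, beside 43.9% of all genes tested in that run called. Leaving out post B gave 6 rises and 6 falls, beside 34.1%, with NAC31 and NAC33 added to the falls. The 7 members with the wide gap were chosen by their level in post B over post A. For those tested in both runs, larger log2 fold changes without post A than without post B follow from this choice. NAC3 no longer met the filter without post B. Without pre A 5 rose and 0 fell by limma's adjusted p, and without pre B 4 rose and 0 fell, with 4.46% and 3.76% of all tested genes called. At an unadjusted p under 0.05 there were 7 rises and 3 falls in both of these runs, beside 30.2% and 30.4% of all tested genes. In these runs the post-fertilization pair alone gives the spread. NAC13, NAC62, NAC18, NAC30 and NAC37 lost the call without either pre-fertilization library. NAC52 lost it without pre B, and NAC09 no longer met the filter without either. NAC05, NAC13 and NAC62 no longer met it without either post-fertilization library. NAC67, NAC4 and NAC24 were called as higher in all 4 runs that leave out a library. With quantile normalization 6 NAC genes rose and 6 fell, beside 16.6% and 22.7% of all tested genes. NAC62 was lost from the rises, and NAC22 and NAC31 were added to the falls. With the column ending as a replicate block 9 rose and 4 fell, while the share called among all tested genes was 31.5%.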

How the data were processed

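The authors deposited 1 table of FPKM values, with a row for each of 28783 genes and a column for each of 4 libraries; FPKM scales fragments to transcript length and to mapped fragments. Per the submitters' processing notes FastQC, fastp, HISAT2, Cufflinks and Cuffdiff were used. Versions, genome build, annotation, scaling between libraries and the counting of shared reads are stated in no source used here. Column names show each library's group, not its sample. Genes reaching 1 FPKM in 2 or more libraries were tested with limma 3.58.1 under R 4.3.3, on log2(FPKM + 1) (no covariate, variance trend, two-sided, Benjamini-Hochberg over 17849 genes, threshold 0.05). The fit had 2 residual degrees of freedom and a prior of 2.55, and its script was tested on simulated data. Intervals are 95% intervals of that fit. Relative depth is the most frequent ratio to pre A among genes under 0.3 FPKM. Chromosome numbers are those most genes of a sequence carry in the RefSeq table, whose coordinates were not used. The members, the lists and the rule that names called, high, silent, gapped and neighbouring members were chosen with earlier results of these data known. NAC14, NAC22 and low members outside that rule were named after their values were seen. Alternatives were pseudocounts of 0.1 and 5, other filters, quantile normalization, no variance trend, a replicate block and leaving out each library. Member sequences were not used here. Figures were drawn with matplotlib 3.10.9.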

Additional observations from a re-analysis of the deposited data

How the results depend on the processing

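The count of higher NAC genes, 7 with all libraries, ranged from 4 (without pre B) to 14 (without post A) when a library was left out, and that of lower NAC genes, 4, from 0 (without pre A and without pre B, limma adjusted p) to 6 (without post B). With 1 library left in a group, that library is taken to vary like the other group. Among all tested genes the shares called as higher and as lower both dropped steeply without pre A or pre B. Losing the falls in these runs was thus not particular to NAC genes. Without post A the share of all tested genes called as higher changed little. Other settings kept both NAC counts within 1.5 times: pseudocounts of 0.1 and 5, no filter, a filter of 5 FPKM, quantile normalization and no variance trend. The pseudocount of 0.1 and the filter of 5 FPKM each added NAC43 to the rises, and that filter left out NAC62. With the column ending as a replicate block 9 rose and 4 fell, NAC43 and NAC47 being added, while the share called among all tested genes was 31.5%, against 36.5% without it. Deviations of libraries with the same ending correlated at 0.021 over genes. With a single pair of libraries in each group, this cannot decide whether the endings pair libraries. No called gene changed direction in any setting run. Of genes not called, NAC1 ranged from -0.35 (without post B) to 1.64 (without post A), NAC41 from -0.25 (without post B) to 0.90 (without post A) and NAC14 from -0.11 (without pre B) to 0.59 (without pre A) in log2 fold change, and the cause was not tested. Post B over post A was 11.7 for NAC3 and 3.07 for NAC25 with 1 added to each value, and 13.7 and 3.01 with quantile normalization. Absolute depth is unknown, which limits what values under 1 FPKM show.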

Other observations

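All 6 members that carry a second name, NAC1 to NAC6, had their highest value in post B, NAC4 at 65.8 FPKM and NAC2 at 0.601 FPKM among them. NAC1, NAC3, NAC5 and NAC6 are also among the members with the wide post B gap, and NAC2 was above 0 in post B alone. Of the 59 members above 0 in some library, 25 were highest in post B (42.4%), 13 in post A, 15 in pre A and 6 in pre B. Of all tested genes, a set without the low ones, 32.7% were highest in post B. This grouping by name was seen in the data and was not tested.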
